A study of Mus musculus with 6 samples.

Results

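Hippocampal barcodes of 5×FAD mice given Aβ3FTnAu were compared with those of wild-type littermates given PBS, with neurons and glia taken apart. The comparison asks which genes differed from wild type after treatment outside the microglia. The 5×FAD line carries mutant human transgenes, APP among them, driven by the Thy1 promoter, which is active mainly in neurons, and Aβ3FTnAu is, by the title of the series, a protein-gold nanostructure aimed at amyloid-β plaques. All mice were 6 months old. Each group had 2 samples, and the labels do not say whether a sample was 1 animal or a pool, so the p-values measure only the spread between these samples. A further 2 samples of 5×FAD mice given PBS were fitted together with them and are shown beside each result.

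A barcode, the tag shared by all molecules of 1 droplet, was kept when it had at least 500 genes, at least 1000 UMIs (unique molecules counted) and at most 15% of UMIs from the 13 genes of the mitochondrial genome. The 4 samples compared held 32070 of the 44736 kept barcodes of the 6 samples, out of 50224 deposited. Neuron barcodes, which had at least 3 UMIs summed over Rbfox3, Syt1 and Snap25, numbered 27707, and 4363 barcodes remained. Among the remaining barcodes, 1605 carried mainly oligodendrocyte markers (Mog, Mag, Ermn, Opalin, Aspa) and 792 mainly astrocyte markers (Aqp4, Aldh1l1, Gja1, Slc1a3, Gfap, Fgfr3). Close to the threshold of the neuron gate, 42.1% and 36.4% of the remaining barcodes of the treated samples and 51.3% and 43.4% of those of the wild-type samples had 1 or 2 UMIs of the gate genes. In neuron barcodes, all 10 dentate granule, all 9 CA1 pyramidal, all 10 CA3 pyramidal and all 15 interneuron markers had UMIs in each of the 4 samples. So did all 10 oligodendrocyte, all 10 astrocyte and all 10 microglia markers. In sums of this depth the presence of UMIs therefore does not tell cell types apart.

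Oligodendrocytes wrap axons in myelin, and in mouse models of amyloid deposition a disease-associated state is known, marked by complement component C4b and the serine protease inhibitor Serpina3n. Astrocytes take up glutamate and make most of the brain's apolipoprotein E (Apoe), the lipid carrier whose human alleles set much of the genetic risk of late-onset Alzheimer's disease. Neurons respond to amyloid less uniformly, and ribosomal and respiratory-chain transcripts are among those often followed in them.

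The samples differed in ways that touched several results. The labels speak of viable single-cell suspensions, and whether the barcodes hold whole cells or mainly nuclei was not tested, which bears on the mitochondrial, ribosomal, gene-span and non-coding results. Kept UMIs ran from 33268258 to 75730912 in the 4 samples compared. Mitochondrial UMIs made up 0.0151% and 0.0125% of the treated samples, 0.0239% and 0.0754% of the wild-type samples and 0.0852% and 0.122% of the 5×FAD samples given PBS. Barcodes with no mitochondrial UMI were 65.9% and 64.3% of the treated samples against 56.4% and 29.2% of the wild-type ones, so the wild-type samples also stood apart from each other. The astrocyte gate held 60 and 37 treated barcodes and 599 and 96 wild-type barcodes, the oligodendrocyte gate 203 and 390 against 606 and 406, and the vascular gate 0 and 2 against 33 and 9. In sums over barcodes, fewer cells of a type and less RNA per cell cannot be told apart. Pairs of samples shared 7 to 34 barcode sequences.

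**Figure D1:**
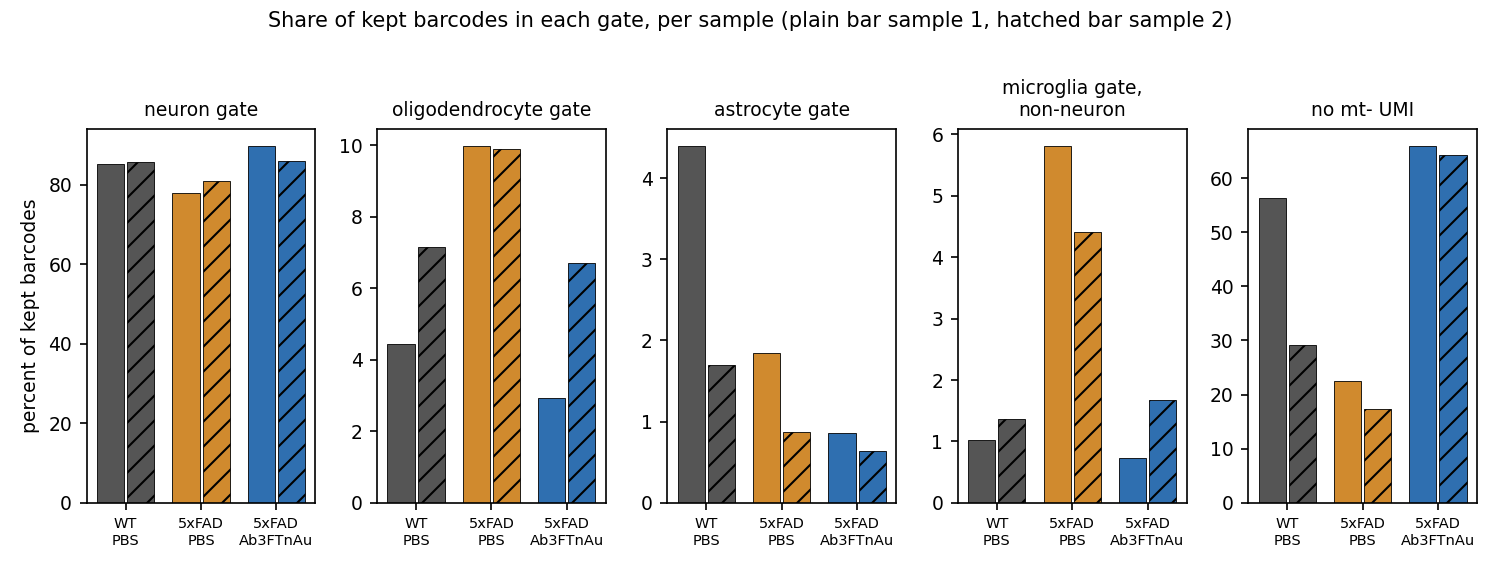
Percent of kept barcodes in each gate and with no mitochondrial UMI, 1 bar per sample, for the 3 groups. The treated samples held 0.864% and 0.636% astrocyte-gate barcodes, below 4.39% and 1.69% in the wild-type samples, and the neuron share was between 77.9% and 89.6% in all 6 samples.

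The gate shares are given as values and were not tested. Neuron barcodes were 89.6% and 86.0% of the treated samples and 85.2% and 85.7% of the wild-type samples. The non-neuronal microglia gate held 0.734% and 1.67% against 1.02% and 1.36%, overlapping ranges, and 5.81% and 4.41% in 5×FAD mice given PBS. Counted over all kept barcodes, neuron barcodes included, the microglia gate held 21.96% and 25.64% of the treated samples. The wild-type samples, at 7.16% and 17.33%, both lay below them, and the 5×FAD samples given PBS held 28.18% and 21.55%. Only 51 of 1525 and 97 of 1492 such barcodes in the treated samples lay outside the neuron gate. In the wild-type samples 139 of 976 and 77 of 982 did. Most were thus neuron barcodes, and these shares are not shares of microglia. Neuron barcodes that also passed the microglia gate were kept as neuron barcodes, and their part in the neuron results was not tested. Astrocyte-gate barcodes were lower in both treated samples than in either wild-type sample.

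In oligodendrocyte-marker barcodes the treated samples kept a high level of C4b, the complement component that feeds the classical and lectin pathways. C4b stood at 146 and 248 CPM (UMI counts scaled to a common library size with edgeR's TMM factors) in the treated samples, 10.2 and 9.82 CPM in wild type, and 320 and 362 CPM in 5×FAD mice given PBS. The treated samples lay far above both wild-type samples and below both PBS samples of the transgenic line. C4b (chr17:34728380-34743882, mm10, protein-coding) rose by 4.32 ± 0.34 (log2 fold change, SE, 2 against 2 samples, edgeR quasi-likelihood adjusted p = 2.69e-05). The treated samples differed from the PBS samples by -0.75, which did not pass (edgeR adjusted p = 0.339).

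Piezo2, a mechanically gated cation channel, was at 119 and 167 CPM in treated, 21.4 and 9.82 CPM in wild-type and 113 and 118 CPM in PBS-treated 5×FAD oligodendrocyte-marker barcodes. It rose by 3.14 ± 0.32 against wild type (edgeR adjusted p = 0.000439). Both treated samples lay just above the PBS samples, a difference that did not pass (0.35, edgeR adjusted p = 0.719). Aldh1l2, a mitochondrial enzyme of folate metabolism, was at 44.1 and 47.6 CPM in treated samples, 5.64 and 13.1 CPM in wild type and 66.5 and 78.8 CPM with PBS, and rose by 2.37 ± 0.43 (edgeR adjusted p = 0.0204). Bcl3, a regulator of NF-κB target genes, was at 20.3 and 28.2 CPM in the treated samples and rested on 1 UMI in the wild-type samples against 22 in the treated ones, a ratio of 38.2 with an exact 95% interval of 6.17 to 1575 that covers counting error only.

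These genes belong to a list of 20 disease-associated oligodendrocyte genes, of which 17 could be tested here. Among the 17, 6 rose (C4b, Piezo2, Bcl3, Aldh1l2, the complement protease Masp1 and the interferon-induced Rtp4) and 0 fell, where 0.889% of all 8887 tested genes rose and 0.866% fell. In 9 of the 17 both treated samples lay above both wild-type samples, where 22.7% of all genes did. The list was drawn up with results of these data known, so its direction is no independent evidence. Its median log2 fold change was 0.63 against wild type, beside -0.00 over all genes tested. The list's median was 1.47 without wild-type sample 1 and -0.28 with the stricter barcode filter, and it had the other sign in 2 of 17 alternatives. In 5×FAD mice given PBS, fitted against the same wild-type samples, the list's median was 1.45. Serpina3n was at 23.7 and 15.9 CPM in treated and 5.64 and 1.64 CPM in wild-type samples and did not pass (2.19 ± 0.65, edgeR adjusted p = 0.0895). H2-D1, which presents peptides to T cells, was at 20.3 and 31.7 CPM against 15.8 and 9.82 CPM and did not pass either. The tetraspanin Cd9 pointed the other way, with 244 and 287 CPM against 888 and 329 CPM, and did not pass.

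**Figure D2:**
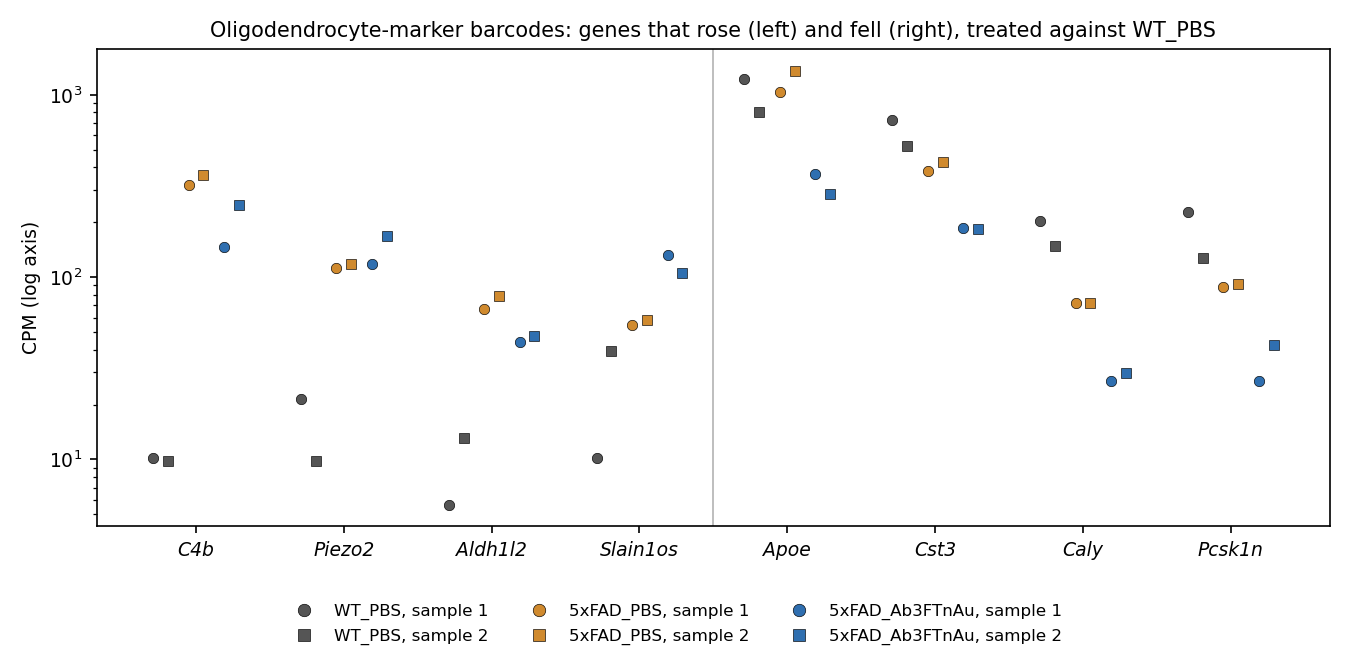
CPM on a log axis for 8 genes in oligodendrocyte-marker barcodes, 1 point per sample, for wild type (grey), 5×FAD given PBS (orange) and 5×FAD given Aβ3FTnAu (blue). For C4b, Piezo2 and Aldh1l2 the treated points lie near the PBS points of the same line, and for Apoe and Caly they lie below the other 4 samples.

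A second set of genes fell in oligodendrocyte-marker barcodes. Apoe (chr7:19696109-19699188) was at 366 and 285 CPM in treated samples, 1218 and 808 CPM in wild type and 1036 and 1352 CPM in 5×FAD mice given PBS. It fell by 1.65 against wild type (SE 0.22, edgeR adjusted p = 0.004), and it was also lower than in the PBS samples (-1.89, edgeR adjusted p = 0.0042), a contrast in which 0.0338% of genes passed. Caly, a neuronal vesicle protein that binds clathrin light chain, was at 27.1 and 29.9 CPM against 204 and 149 CPM in wild type and 72 and 72.6 CPM with PBS, and fell by 2.62 (SE 0.28, edgeR adjusted p = 0.000541). Cystatin C (Cst3), a secreted cysteine protease inhibitor, was at 186 and 183 CPM against 731 and 522 CPM and fell by 1.77 (SE 0.20, edgeR adjusted p = 0.000901). The treated samples lay below all 4 others for these 3 genes. Also falling were Pcsk1n and Resp18 of secretory granules, the neuropeptide genes Cck and Grp, Itm2b (a membrane protein that binds APP), the proton pump subunit Atp6v0c, and Tnr and Ptprz1, which oligodendrocyte precursors express.

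Myelin genes did not follow either set. Of 12 testable myelin genes, 0 rose and 0 fell, with a median of 0.00 that had the other sign in 8 of 17 alternatives (edgeR; 4 had an unadjusted p under 0.05, as had 18.3% of all genes). Mbp, the main protein of compact myelin, was at 5317 and 5129 CPM in treated and 2331 and 3912 CPM in wild-type samples and did not pass (0.74 ± 0.18, edgeR adjusted p = 0.0519). Markers of other cell types in the same barcodes moved unequally. The summed CPM of the 4 astrocyte markers outside the gate was 9.85 and 6.86 in treated and 28.5 and 12.5 in wild-type samples, that of 3 microglia markers 62.4 and 61.8 against 47.8 and 53.2, and that of 6 precursor markers 456 and 467 against 802 and 634. Only 1 of the 4 astrocyte markers had UMIs in all 4 samples, so that sum rests on few UMIs. Among neuronal lists, the 9 CA1 markers summed to 2511 and 1771 against 2754 and 3081 CPM and the 10 subiculum and cortex markers to 187 and 142 against 282 and 208 CPM, while 7 general neuron markers overlapped at 190 and 256 against 236 and 185 CPM. Their part in these results was not tested.

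In all, 79 genes rose and 77 fell in oligodendrocyte-marker barcodes, 156 of 8887 or 1.76%. The count was 5 without treated sample 1, 3 without treated sample 2 and 1269 without wild-type sample 2. It was 0 when barcodes needed 2000 UMIs and 1000 genes, 6 in barcodes with a mitochondrial UMI and 75 with DESeq2, while C4b passed in 16 of 17 alternatives and Apoe, Caly, Cst3 and Piezo2 in 15 of 17 each. Other genes named here held less often. Cck, Itm2b, Pcsk1n, Atp6v0c and Tnr passed in 13 of 17 alternatives, Aldh1l2 in 11 of 17, Bcl3 in 9 of the 12 in which it was tested, Resp18 in 9 of 14, Masp1 and Grp in 7 of 13, Ptprz1 in 7 of 17 and Rtp4 in 5 of 13.

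Apoe was lower in the treated samples in every population examined. In astrocyte-marker barcodes it was at 1167 and 1249 CPM in treated samples, 10202 and 5853 CPM in wild type and 5345 and 11815 CPM in 5×FAD mice given PBS, and fell by 2.73 (SE 0.34, edgeR adjusted p = 0.00498). It differed from the PBS samples as well (-2.83, edgeR adjusted p = 0.0036), where 0.141% of genes passed. Among all remaining barcodes it was at 433 and 384 CPM against 3838 and 1360 CPM and fell by 2.67 (SE 0.45, edgeR adjusted p = 0.0419). In neuron barcodes, where the level was low, it was at 48.6 and 52.8 CPM against 124 and 92.2 CPM and fell by 1.09 (SE 0.18, edgeR adjusted p = 0.049). In each population both treated samples lay below the other 4. The call held in 9 of 17 alternatives in neuron barcodes and in 12 of 18 in remaining barcodes.

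**Figure D3:**
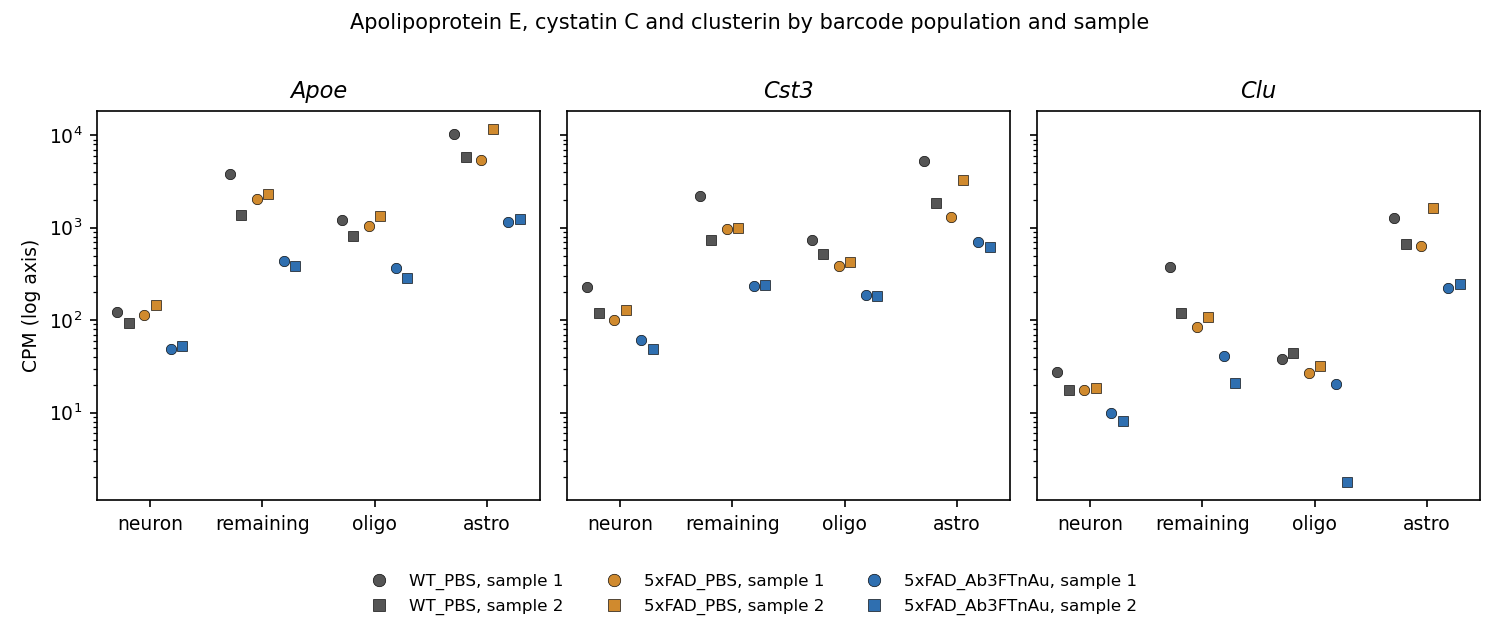
CPM on a log axis of Apoe, Cst3 and Clu in neuron, remaining, oligodendrocyte-marker (oligo) and astrocyte-marker (astro) barcodes, 1 point per sample, colours as for the oligodendrocyte genes. Apoe of both treated samples lies below the other 4 samples in each of the 4 populations, from 48.6 CPM in neuron barcodes to 1249 CPM in astrocyte-marker barcodes.

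Astrocyte-marker barcodes were few, 60 and 37 in the treated samples, and 34 genes rose (0.956%) and 25 fell (0.703%) there, 59 of 3557 or 1.66%. Clusterin (Clu), a secreted chaperone that binds amyloid-β, was at 223 and 246 CPM in treated and 1280 and 664 CPM in wild-type samples and fell by 2.08 (SE 0.45, edgeR adjusted p = 0.0405). Other genes that fell there were Cst3, the adhesion molecule Vcam1, the prosaposin receptor gene Gpr37l1, the tetraspanin Cd81, and Ppib, Ssr4 and Spcs2, which serve folding and import in the endoplasmic reticulum. Of 19 testable homeostatic astrocyte genes that did not define the gate, 3 fell and 0 rose, with a median of -0.69 beside 0.00 over all genes (-0.46 in barcodes with no mitochondrial UMI). Both treated samples lay below both wild-type samples in 15 of the 19, where 23.4% of all genes did, and above them in 0, where 23% did. The reactive astrocyte marker Gfap was at 301 and 493 CPM against 142 and 196 CPM and did not pass (1.27 ± 0.39, edgeR adjusted p = 0.125).

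The rises in the same barcodes included Tnr and Lhfpl3, genes that oligodendrocyte precursors express. Tnr, an extracellular matrix protein, was at 669 and 334 CPM in treated and 83.8 and 97.8 CPM in wild-type samples and rose by 2.53 ± 0.37 (edgeR adjusted p = 0.00695). Lhfpl3, a marker of oligodendrocyte precursors, was at 826 and 862 CPM against 127 and 182 CPM and rose by 2.53 ± 0.45 (edgeR adjusted p = 0.0315). The summed CPM of 6 precursor markers outside the gates, Lhfpl3 among them, was 710 and 758 in treated and 152 and 175 in wild-type samples. Lhfpl3 was the only 1 of the 6 with enough UMIs to be tested, and 2 of the 6 had UMIs in all 4 samples. The sum therefore mainly repeats Lhfpl3 and says little about the other markers. Whether precursors were among these barcodes was not tested. Several rises were long non-coding RNAs, among them C730002L08Rik (406 and 528 CPM against 49.5 and 97.8 CPM) and Gm26936 (315 and 317 CPM against 33.0 and 69.8 CPM). The synaptic adhesion gene Csmd3 and the transcription factor gene Mef2c rose as well. The count of changed genes was 269 without wild-type sample 2, 112 without treated sample 2, 91 without 5×FAD PBS sample 1 and 20 without treated sample 1, and 2 when only the 4 samples compared were fitted; Apoe passed in 16 of 17 alternatives. Tnr passed in 13 of 16, Lhfpl3 and Cst3 in 12 of 17, Clu in 10 of 17, Mef2c in 7 of 17 and Vcam1 in 6 of 13.

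Among all remaining barcodes, 86 genes rose (0.651% of 13217) and 149 fell (1.13%). Astrocyte genes made up many of the large falls. The gap junction protein Gja1 was at 18.7 and 16.2 CPM in treated and 285 and 80.7 CPM in wild-type samples and fell by 3.42 (SE 0.57, edgeR adjusted p = 0.0419). Of 24 homeostatic astrocyte genes, 8 fell and 0 rose, with a median of -1.69 against wild type and -1.49 in 5×FAD mice given PBS against the same wild-type samples. The treated median was -0.98 without wild-type sample 1. Falls also included Sox9, Mlc1, Mfge8, Clu, Cst3 and the coagulation factor receptor F3. The summed CPM of all 10 astrocyte markers was 561 and 409 in treated and 2063 and 885 in wild-type samples, which moves with the gate counts above, and its part in these falls was not tested.

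Vascular genes fell in the same barcodes. Cldn5, the tight junction protein of brain endothelium, had no UMI in either treated sample and stood at 14.3 and 45.7 CPM in wild type (edgeR adjusted p = 0.0465). Ly6c1, an endothelial surface protein, likewise had no UMI in the treated samples against 7.44 and 17.5 CPM. The organic anion transporter Slco1a4 was at 2.67 and 1.54 CPM against 20.2 and 59.4 CPM and fell by 4.15 (SE 0.76, edgeR adjusted p = 0.0419). The summed CPM of the 10 endothelial and mural markers was 42.4 and 40.9 against 235 and 281, beside 0 and 2 vascular-gate barcodes in the treated samples and 33 and 9 in wild type. The part of those counts in the falls was not tested.

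Piezo2, C4b, Bcl3 and Aldh1l2 rose in the remaining barcodes too. Piezo2 was at 57.0 and 90.2 CPM in treated and 10.2 and 10.7 CPM in wild-type samples and rose by 2.82 ± 0.30 (edgeR adjusted p = 0.0345). Further rises included Htr2b, a serotonin receptor gene (65.0 and 61.6 CPM against 9.92 and 16.7 CPM) and the ESCRT-III subunit Chmp4c (37.4 and 31.6 CPM against 5.27 and 7.61 CPM). Kcnc2, a fast potassium channel of interneurons, was at 253 and 157 CPM against 81.2 and 85.2 CPM and rose by 1.30 ± 0.25 (edgeR adjusted p = 0.0465). Barcodes in no glial or vascular gate were 40.5% and 23.7% of remaining barcodes in treated and 15.7% and 18.6% in wild-type samples. The median of 21 potassium channel genes was 0.39, and that of 7 general neuron markers -0.42. The 15 interneuron markers summed to 2466 and 2353 against 2221 and 2432 CPM. The part of those barcodes in the rise of Kcnc2 was not tested.

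Genes of disease-associated microglia were part of the remaining barcodes as well. Of 28 testable members, 5 rose, where 0.651% of all genes did, and 1 fell, where 1.13% did, the latter being Apoe. Cst7, an inhibitor of lysosomal cathepsins, was at 5.34 and 8.48 CPM in treated samples, 0.620 and 0.761 CPM in wild type and 68.2 and 48.7 CPM with PBS. The treated samples were lower than the PBS samples for Cst7 (-3.05, edgeR adjusted p = 0.0242) and Tyrobp (-2.65, edgeR adjusted p = 0.00981), where 0.053% of genes passed, and 1.94% passed for PBS samples against wild type. Cst7 rested on 17 UMIs in the treated and 3 in the wild-type samples, a ratio of 10.6 with an exact 95% interval of 3.07 to 56.6. The chemokine gene Ccl4 had 26 UMIs against 1 UMI, a ratio of 48.8 with an interval of 8.01 to 1999. Lilrb4a and Mamdc2 rose, and Ccl3 rose with no UMI in wild type. Trem2, the lipid-sensing receptor of microglia, was at 30.3 and 46.2 CPM against 53.6 and 22.1 CPM, with overlapping samples (-0.05 ± 0.38, edgeR adjusted p = 0.954), and at 279 and 238 CPM in 5×FAD mice given PBS. Its adaptor Tyrobp was at 24.9 and 19.3 CPM against 18 and 19.8 CPM and did not pass. With barcodes of the microglia gate left out, 241 genes in all changed in the remaining barcodes, against 235 with them.

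The count of 235 changed genes in the remaining barcodes, 1.78% of those tested, rested on the shared fit. It was 0 with the 4 compared samples alone, 0 in barcodes with no mitochondrial UMI and 0 without either treated sample or either PBS sample, and 113 and 2950 without wild-type samples 1 and 2, respectively. Piezo2, Apoe, Gja1 and Htr2b passed in 12 of 18 alternatives, C4b in 10 of 18, Kcnc2 in 8 of 18, Cst7 in 6 of 17 and Ccl3 in 5 of 13.

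In neuron barcodes 207 genes rose (1.02% of 20334) and 353 fell (1.74%). All 560 (2.75%) had edgeR adjusted p-values from 0.0490 up to the threshold of 0.05, and 6963 genes had an unadjusted p under 0.05. The count was therefore close to the threshold as a whole. It was 0 with doublets removed, with the 4 compared samples alone, in barcodes with a mitochondrial UMI, and without either treated or either 5×FAD PBS sample, and it was 4124 and 10542 without wild-type samples 1 and 2. Of 17 alternatives, Lss and Rpl41 passed in 9, Gria1 in 8 and Gria2 in 6. In the sum over all kept barcodes, 0 of 20659 genes passed in edgeR (0.0%), 7008 had an unadjusted p under 0.05 and DESeq2 called 3889.

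Among the rises in neuron barcodes, Lss, the lanosterol synthase of cholesterol synthesis, was at 23.5 and 23.2 CPM in treated samples, 8.14 and 10.1 CPM in wild type and 18 and 13.1 CPM with PBS. It rose by 1.36 ± 0.20 (edgeR adjusted p = 0.049). Of the 22 cholesterol genes tested, Lss alone passed, where 1.02% of all genes rose. In both treated samples 16 were higher than in either wild-type sample, where 30.9% of all genes were. Hmgcs1, an early enzyme of the pathway, was at 29.9 and 43.2 CPM against 20.2 and 21.3 CPM and did not pass (0.82 ± 0.22, edgeR adjusted p = 0.0713). The list's median was 0.31 in treated and 0.39 in PBS samples over the same wild type, and 0.20 in treated without treated sample 2.

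The cholesterol genes lay on the other side of zero in the remaining barcodes. There 0 of 21 passed in edgeR, 6 had an unadjusted p under 0.05, 11 were lower in both treated samples than in either wild-type sample, where 23.9% of all genes were, and the median was -0.49, or -0.32 without wild-type sample 1. Msmo1, a sterol demethylase component, was at 57.9 and 60.9 CPM in treated and 233 and 89.0 CPM in wild-type samples (-1.46 ± 0.39, edgeR adjusted p = 0.0763). Insig1, which retains the sterol sensor in the endoplasmic reticulum, was at 30.3 and 38.5 CPM against 87.1 and 66.2 CPM (-1.16 ± 0.24, edgeR adjusted p = 0.0509). The difference between remaining and neuron barcodes was tested gene by gene in 1 model, where Hmgcs1 did not pass (-1.45, edgeR adjusted p = 0.0572). In 5×FAD mice given PBS the median in remaining barcodes was -0.40. The treated median was 0.12 in oligodendrocyte-marker barcodes (other sign in 4 of 17 alternatives) and -0.57 in astrocyte-marker barcodes. The astrocyte gate held 8.29% and 4.55% of remaining barcodes in treated and 29.7% and 11.9% in wild-type samples. Its part in the median was not tested.

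**Figure D4:**
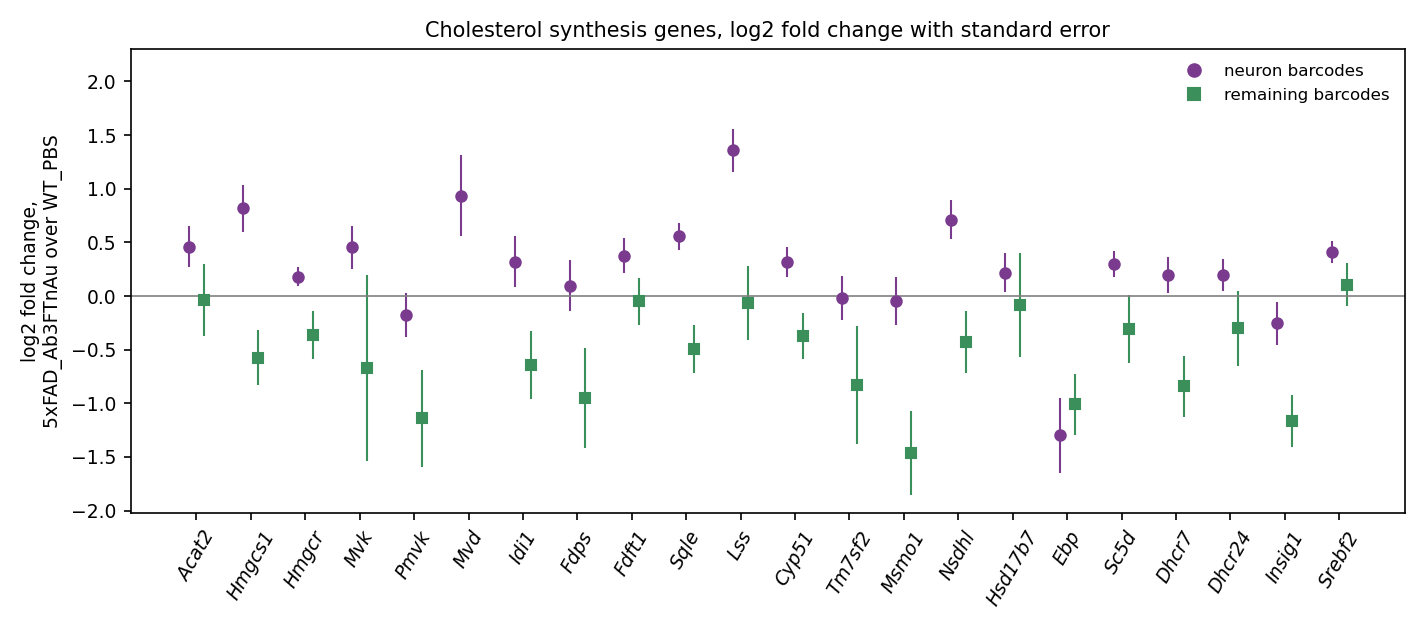
Log2 fold change of 5×FAD given Aβ3FTnAu over wild type with its standard error for 22 cholesterol genes in neuron barcodes (circles) and 21 in remaining barcodes (squares). Neuron values have a median of 0.31 and those of remaining barcodes a median of -0.49; among these points only Lss in neuron barcodes passed the test.

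Of 24 presynaptic release genes in neuron barcodes 0 passed in edgeR and 9 had an unadjusted p under 0.05, where 34.2% of all genes had. Their median was -0.13, or -0.34 and 0.01 without wild-type samples 2 and 1. Of 24 glutamate receptor and postsynaptic genes 1 rose and 1 fell, where 1.02% and 1.74% of all genes did. The AMPA receptor subunit gene Gria1 was at 3156 and 2628 CPM in treated and 1690 and 1981 CPM in wild-type samples and rose by 0.66 ± 0.12 (edgeR adjusted p = 0.0498). Its partner Gria2 was at 2142 and 2021 CPM against 2685 and 2722 CPM and fell by 0.38 (SE 0.07, edgeR adjusted p = 0.0493). The interneuron genes Gad1, which makes GABA, and Dlx1 rose. Gad1 was the single riser among 16 genes of GABA signalling, where 1.02% of all genes rose. Of the 16, 10 were lower in both treated samples than in either wild-type sample, where 32.7% of all genes were. Another 3 were higher, where 30.9% of all genes were, and the list's median was -0.36. Dlx1 and Gad1 stand beside a summed CPM of the 15 interneuron markers of 1794 and 1645 in treated and 1302 and 1399 in wild-type samples. Dcn, listed among both the CA1 and the fibroblast markers, was at 4.1 and 3.5 CPM against 35.8 and 19.8 CPM and fell by 2.87 (SE 0.35, edgeR adjusted p = 0.049). Snap25, which helped define the gate, was at 582 and 618 CPM against 922 and 858 CPM.

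Immune genes were low in neuron barcodes. Cst7 was at 3.37 and 4.21 CPM in treated and 0.676 and 0.836 CPM in wild-type samples, and C4b at 2.60 and 4.86 CPM against 0.869 and 0.836 CPM, and both rose (2.34 and 2.12, edgeR adjusted p = 0.049 for each). The summed CPM of the 10 microglia markers in neuron barcodes was 322 and 337 in treated and 217 and 273 in wild-type samples. Their median log2 fold change was -0.28. Of the 10, 4 were lower in both treated samples than in either wild-type sample and 2 higher, near the 32.7% and 30.9% of all genes. The part of these markers in the rises was not tested. Of 24 homeostatic astrocyte genes 5 fell in neuron barcodes, beside 1.74% of all genes, and 0 rose, with a median of -1.07. The 10 astrocyte markers summed to 39.1 and 33.9 CPM in treated and 76.2 and 56.6 CPM in wild-type neuron barcodes.

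Ribosomal protein genes build the cytosolic ribosome. Of 32 tested in neuron barcodes, 10 fell and 0 rose, where 1.74% of all genes fell, 30 were lower in both treated samples than in either wild-type sample, where 32.7% of all genes were, and the median was -0.97 beside -0.02 over all genes. Rpl41 was at 12.8 and 11.2 CPM in treated, 42.6 and 27.9 CPM in wild-type and 27.4 and 33.5 CPM in PBS samples and fell by 1.56 (SE 0.23, edgeR adjusted p = 0.049). Rpl37 was at 6.49 and 6.09 CPM against 18.7 and 15.3 CPM and fell by 1.44 (SE 0.18, edgeR adjusted p = 0.049). The remaining barcodes gave 10 falls of 32, where 1.13% of all genes fell, and a median of -1.29. Oligodendrocyte-marker barcodes gave 2 falls of 31, where 0.866% of all genes fell, and a median of -1.10, which was -0.69 with the stricter barcode filter. In 5×FAD mice given PBS the medians over the same wild-type samples were -0.14, -0.23 and -0.24.

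Promoters of ribosomal genes often carry sites for ETS-family factors, so the 250 bases before each start were searched on both strands for CCGGAAG, a choice made after the values were seen. It was present in 7 of the 21 ribosomal genes with a RefSeq window on GRCm38.p6 (33.3%), in 5 of 19 respiratory-chain genes (26.3%) and in 7.83% of 27025 genes. Of the 3 other motifs searched, an NRF1-type motif was in 0 of 21 ribosomal and 3 of 19 respiratory-chain windows (4.23% of all genes). TCACNCCAC was in 0 of 21 and 0 of 19 (1.22%), and TTCNNNGAA in 3 of 21 and 0 of 19 (8.13%). Shown are selected windows of 3 of the 10 ribosomal genes that fell in neuron barcodes. These 3 have the match, and whether the others have it is not given. Whether genes that fell carry the match more often was not tested, and Rps6 passed in 6 of 17 alternatives. Each window is given as the 150 bases before the start, 5′ to 3′ on the gene's strand, with the match in capitals. The windows are chr15:5116463-5116612 (plus strand) for Rpl37, chr10:128549169-128549318 (minus strand) for Rpl41 and chr4:86857368-86857517 (minus strand) for Rps6.
Rpl37: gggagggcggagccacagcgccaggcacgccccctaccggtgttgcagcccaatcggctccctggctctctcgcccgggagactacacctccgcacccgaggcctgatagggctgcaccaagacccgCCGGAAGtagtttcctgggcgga
Rpl41: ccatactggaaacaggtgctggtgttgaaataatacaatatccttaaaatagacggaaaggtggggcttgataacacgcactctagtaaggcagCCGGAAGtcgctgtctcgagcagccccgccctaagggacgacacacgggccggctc
Rps6: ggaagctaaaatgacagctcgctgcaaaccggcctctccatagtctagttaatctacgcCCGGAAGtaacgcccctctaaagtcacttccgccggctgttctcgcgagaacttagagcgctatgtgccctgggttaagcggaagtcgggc
A match of these letters is a description of the window and no evidence of binding.

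Nuclear-encoded genes of oxidative phosphorylation showed the same direction, with 4 falls of 28 in neuron barcodes, where 1.74% of all genes fell, and a median of -0.77. Cox4i1, a subunit of cytochrome c oxidase, was at 34.9 and 34.0 CPM in treated and 66.0 and 74.7 CPM in wild-type neuron barcodes and fell by 1.03 (SE 0.11, edgeR adjusted p = 0.049). In remaining barcodes 5 of 28 fell, beside 1.13% of all genes, with a median of -1.03. In oligodendrocyte-marker barcodes 3 of 26 fell, beside 0.866% of all genes, with a median of -0.95. Genes of the mitochondrial genome had a median of -1.79 in neuron barcodes of treated samples and 0.92 in those given PBS, and 1 of 13 fell. The treated median was -0.50 in neuron barcodes without wild-type sample 2, and without that sample it was 0.12 in oligodendrocyte-marker and 0.34 in astrocyte-marker barcodes. That gene, mt-Cytb, was at 9.69 and 8 CPM in treated, 25.3 and 58.0 CPM in wild-type and 61.3 and 77.6 CPM in PBS samples, in the same order as the mitochondrial shares given above.

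**Figure D5:**
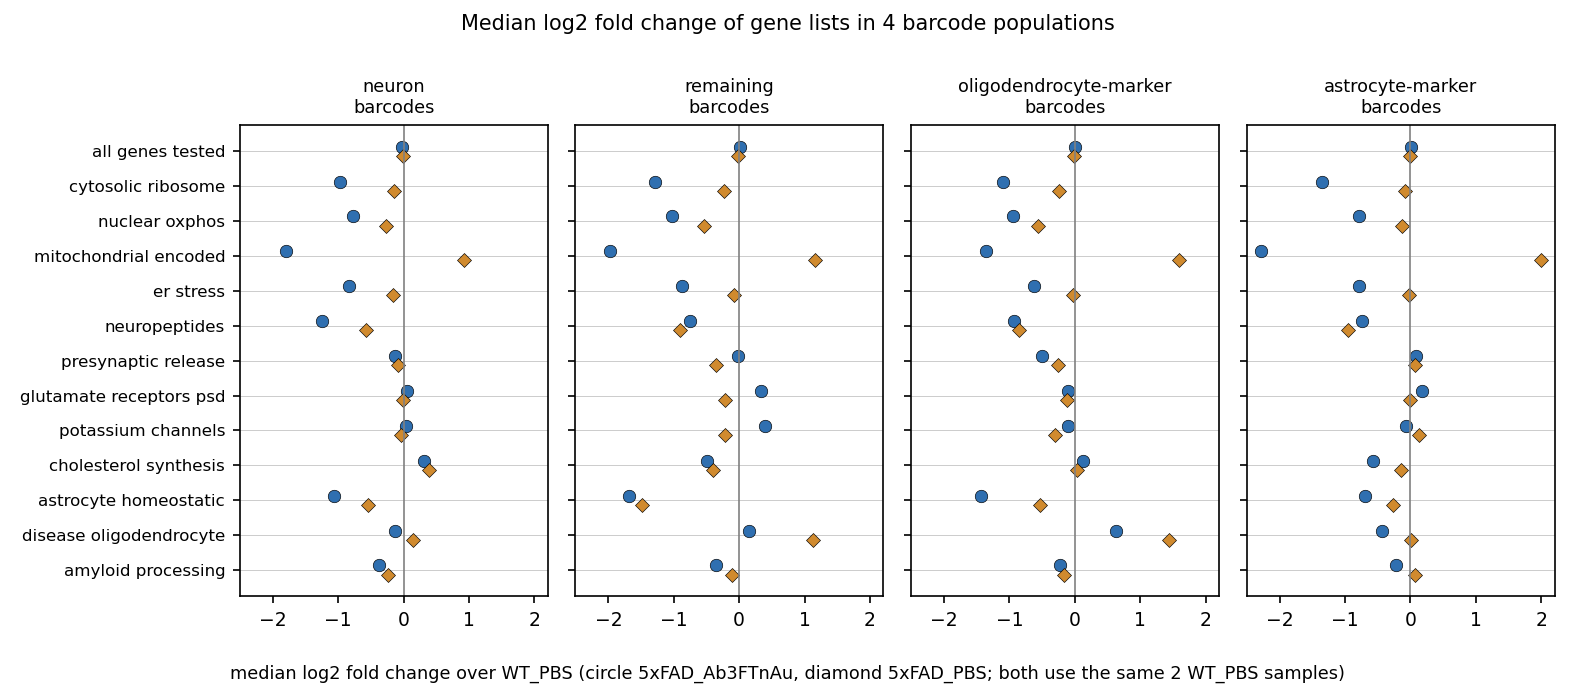
Median log2 fold change over wild type of 12 gene lists and of all genes tested, in 4 barcode populations, for 5×FAD given Aβ3FTnAu (circles) and given PBS (diamonds). Ribosomal genes lie between -1.35 and -0.97 in the treated samples, and mitochondrially encoded genes lie on opposite sides of zero in the 2 groups, which in oligodendrocyte-marker and astrocyte-marker barcodes rested on wild-type sample 2.

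Genomic span was a property examined after the values were seen, and falls were most frequent among genes of the shortest span. Among protein-coding genes of at least 20 CPM in neuron barcodes, 10 rose and 121 fell of the 1543 with the shortest spans (median -0.31), and 40 rose and 10 fell of the 1543 with the longest (median 0.08). In remaining barcodes the 1846 shortest held 5 rises and 108 falls, and the 1846 longest 7 and 0. Genes of other biotypes, mostly long non-coding RNAs, had medians of 0.73 in neuron and 0.59 in remaining barcodes. The treated samples also had more barcodes with no mitochondrial UMI, as given above. Measured apart, the ribosomal median in the remaining barcodes was -0.97 in barcodes with no mitochondrial UMI and -1.49 in those with at least 1.

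Several further genes that fell in neuron barcodes are given singly. The cholecystokinin gene Cck was at 60.8 and 55.4 CPM in treated and 180 and 143 CPM in wild-type samples and fell by 1.47 (SE 0.16, edgeR adjusted p = 0.049). Ferritin heavy chain Fth1, which stores iron, was at 37.7 and 44.7 CPM against 125 and 112 CPM and fell by 1.53 (SE 0.23, edgeR adjusted p = 0.049). Metallothionein Mt1 was at 2.38 and 2.33 CPM against 8.79 and 6.88 CPM, and the immediate early gene Jun at 5.77 and 5.62 CPM against 17.2 and 15 CPM, and both fell. Fos was at 0.410 and 0.889 CPM against 0.648 and 0.289 CPM, with overlapping samples. The chaperone Hspa5 and the γ-secretase subunit gene Psenen fell, while Hspa1a, at 0.246 and 0.444 CPM against 1.01 and 0.643 CPM, did not pass. Trem2, Mbp, Gfap and Serpina3n did not pass in neuron barcodes, nor did Xist, Meg3, Ftl1 and Mt2. Mt2 was at 0.547 and 0.444 CPM against 2.26 and 2.06 CPM (edgeR adjusted p = 0.0538).

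App and Thy1 were looked at in every population, and neither passed. App was at 521 and 519 CPM in treated, 510 and 451 CPM in wild-type and 575 and 605 CPM in PBS neuron barcodes (0.11 ± 0.08, edgeR adjusted p = 0.377). Thy1, whose promoter drives the transgenes, was at 93.0 and 96.7 CPM in treated, 65.8 and 28.1 CPM in wild-type and 179 and 207 CPM in PBS neuron barcodes (1.01 ± 0.36, edgeR adjusted p = 0.111). In oligodendrocyte-marker barcodes Thy1 was at 88.1 and 137 CPM against 55.3 and 31.1 CPM (1.39 ± 0.34, edgeR adjusted p = 0.0519). The counts were made on the mouse genome, and whether reads of the human transgenes were counted under App was not tested. Malat1, a nuclear non-coding RNA, was at 56181 and 50334 CPM in treated and 67214 and 85409 CPM in wild-type neuron barcodes and did not pass, and it fell by 0.46 in oligodendrocyte-marker barcodes (SE 0.10, edgeR adjusted p = 0.0388), a call that held in 9 of 17 alternatives.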

How the data were processed

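Single-cell suspensions of mouse hippocampus, as the labels describe them, were profiled with 10x Chromium 3′ v3.1 chemistry. The authors deposited raw UMI counts per gene and barcode, written by Cell Ranger 7.1.0 per the file headers, with mm10 and Seurat 4.3.0.1 named in the submitters' processing notes. The intron setting, which bears on nuclear RNAs and long genes, is not stated by the labels or headers.

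Counts of 32285 genes were summed per sample over the barcodes of each population. Sums were tested with edgeR 4.0.16 in R 4.3.3 (quasi-likelihood F test, TMM factors, filterByExpr), all 6 samples in 1 fit with 3 residual degrees of freedom, and p-values were adjusted by Benjamini-Hochberg with a threshold of 0.05. The standard error is the absolute log2 fold change divided by the square root of F. Genes defining a gate were left out of list counts in that population. The edgeR fit, but not the other tests, was also run on simulated counts of neuron, remaining, oligodendrocyte-marker and astrocyte-marker barcodes. Those outcomes are not given here. No doublets were removed in the values reported. Alternatives were DESeq2 1.42.0, RLE factors, no low-count filter, other barcode and gate thresholds, Scrublet doublet removal and leaving out samples. Remaining and neuron barcodes were also compared in 1 model with samples as blocks. Promoter windows came from RefSeq on GRCm38.p6.

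The comparison and the 45 gene lists were chosen with earlier results of these data known. Named genes were, per population, up to 10 largest rises and falls of at least 20 CPM whose samples did not overlap, the 2 members of smallest p in each list described, and 20 genes always followed, among them Apoe, App, Thy1 and C4b. Results of some genes are not reported here. Other genes named in the text were chosen after their values were seen. Samples with the same number in different groups did not deviate together, so no pairing was used.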

Additional observations from a re-analysis of the deposited data

Results flagged for a closer look

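For 3 of 17801 genes the fold change of treated 5×FAD over wild type differed between remaining and neuron barcodes in a test of that difference (edgeR, samples as blocks, chosen after seeing the data). Piezo2 differed by 2.77 ± 0.33 (log2, SE, edgeR adjusted p = 0.0278), being higher in remaining barcodes and near -0.06 in neuron barcodes. Cfap20, a ciliary protein gene, differed by 1.74 ± 0.23 (edgeR adjusted p = 0.0324), with -0.86 in neuron and 0.98 in remaining barcodes. Frmpd1, a scaffold protein gene, differed by -1.91 ± 0.25 (edgeR adjusted p = 0.0324), with 0.93 in neuron and -0.93 in remaining barcodes. The number of such genes was 3 with RLE factors, 0 without either 5×FAD PBS sample, 0 and 1 without treated samples 1 and 2, and 2 and 274 without wild-type samples 1 and 2.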

How the results depend on the processing

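The counts of changed genes depended on the processing, and the cause was not tested. Calls of the named genes in oligodendrocyte-marker barcodes depended on it too. With the stricter barcode filter 0 of them kept the call and 21 lost it. In barcodes with a mitochondrial UMI 5 kept it and 27 lost it. In the order all, neuron, remaining, oligodendrocyte-marker and astrocyte-marker barcodes, DESeq2 called 3889, 3805, 402, 75 and 30 genes, and the fit without a low-count filter 2041, 2188, 2041, 630 and 188. Barcodes with a mitochondrial UMI gave 330, 0, 37, 6 and 10. Barcodes without one gave 540, 890 and 0 in the first 3 populations and 3 in astrocyte-marker barcodes. Fitting only the 4 samples gave 0 in neuron, 0 in remaining, 31 in oligodendrocyte-marker and 2 in astrocyte-marker barcodes. Equal barcode numbers gave 713 in all, 364 in neuron, 22 in oligodendrocyte-marker and 7 in astrocyte-marker barcodes. The stricter barcode filter gave 588 in all, 0 in oligodendrocyte-marker and 10 in astrocyte-marker barcodes, and doublet removal gave 0 in neuron barcodes. Requiring no UMI of the neuron gate gave 153 in remaining, 85 in oligodendrocyte-marker and 24 in astrocyte-marker barcodes. Leaving out all microglia-gate barcodes gave 436 in all barcodes, whereas leaving out only those outside the neuron gate, an alternative chosen after seeing the data, gave 0. Leaving out 1 sample at a time gave 0 to 10559 in all, 0 to 10542 in neuron, 0 to 2950 in remaining, 3 to 1269 in oligodendrocyte-marker and 20 to 269 in astrocyte-marker barcodes. The replicate block gave 0 in neuron, 652 in remaining, 97 in oligodendrocyte-marker and 5 in astrocyte-marker barcodes, although same-numbered samples shared only a number, with correlations of their deviations from -0.16 to 0.08.

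Genes whose log2 fold change reversed had not passed the test. With barcodes holding a mitochondrial UMI the values were 0.20 for Mbp and 0.16 for Piezo2 in neuron barcodes, and 0.35 for Gfap and 0.18 for Lss in remaining barcodes. With barcodes holding none they were -0.19 for Trem2 in neuron barcodes and 0.031 for Serpina3n in remaining barcodes. In neuron barcodes, leaving out 1 sample gave -0.25 to 1.16 for Fos, -0.46 to 0.21 for Mbp, -0.27 to 0.40 for Trem2 and up to 0.13 for Piezo2. In remaining barcodes it gave -0.064 to 0.42 for App, -1.08 to 1.54 for Serpina3n, -0.48 to 0.79 for Trem2 and up to 0.051 for Lss. Trem2 there was 0.020 with the replicate block, 0.44 with the stricter filter, 0.81 without microglia-gate barcodes and 0.016 with no neuron gate UMI, a setting that gave 0.051 for Lss, and Tyrobp was -0.20 with the stricter filter. App in oligodendrocyte-marker barcodes was 0.0023 with RLE factors and -0.089 to 0.078 without 1 sample. In astrocyte-marker barcodes Mbp was -0.065 with DESeq2, -0.94 with equal barcodes, -0.47 without doublets and -1.60 to 1.42 without 1 sample, and Meg3 was 0.11 without doublets, 0.20 with no neuron gate UMI and -0.30 to 0.020 without 1 sample.

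With 2 samples a group, each value rests on the spread of few samples, and the astrocyte-marker barcodes of the treated samples held 94396 and 67258 UMIs.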
